A study of Mus musculus with 30 samples.

Results

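The genes of the MHC class I system were followed in mouse liver across 5 diets that differed in the amount and source of protein and in their sulfur amino acids (SAA). The group holds 9 of the 14173 genes counted: the heavy chains H2-Q1, H2-Q10, H2-Q4, H2-K1, H2-D1 and H2-T23, the light chain B2m, and the peptide-loading genes Tap1 and Tapbp. Members were chosen by gene symbol, and all 9 had passed the filter on low counts in each fit. H2-Q1 was picked from its strong fall on both restricted diets in these same livers, so its values are given as a description with no test, while the other 8 were chosen because they resemble or serve it.

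Livers came from male C57BL6/J mice, labelled as 6 months old, that had eaten their diet for 12 weeks, with 6 livers per diet and 1 library per mouse. The Cas-20% diet held 20% casein with 0.57 g% methionine and 0.41 g% cysteine, and the Cas-5% diet held 5% casein with 0.15 and 0.1 g%. The Soy-20% + SAA diet held 20% soy with both amino acids raised to 0.58 and 0.41 g%, the level of Cas-20%. The Soy-20% diet lacked the added amino acids and held 0.22 g% of each. The Soy-10% diet, labelled as 11.5% soy, held 0.13 g% of each, close to Cas-5%. Before the study diets, mice had been fed Cas-20% or Soy-20%, and all were fasted briefly before tissue was taken. Whole liver was used, so every value mixes hepatocytes with the other cells of the organ, and in such bulk tissue fewer cells of a type and less RNA per cell cannot be told apart.

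Class I molecules carry peptides from inside the cell to its surface, where CD8 T cells and natural killer cells read them. A heavy chain folds around the small invariant chain β2-microglobulin, the product of B2m, and is filled with peptide in the endoplasmic reticulum, where the transporter subunit made by Tap1 brings peptides in and tapasin, the product of Tapbp, holds the empty heavy chain in place. H2-K1 and H2-D1 encode the classical, highly polymorphic chains of the mouse. H2-Q1, H2-Q4, H2-Q10 and H2-T23 are non-classical chains, of which H2-Q10 is secreted into plasma chiefly by the liver and H2-T23 encodes Qa-1, a ligand of inhibitory receptors on natural killer cells. Interferons raise most of these genes through IRF factors, and NF-kB and the NLRC5 enhanceosome act on their promoters too.

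All members but B2m lie in or beside the H2 complex on chromosome 17 (GRCm38). In order of position these are Tapbp at 33915899-33929292, H2-K1 at 33996017-34000347, Tap1 at 34187553-34197225, H2-D1 at 35262730-35267499, H2-Q1 at 35320405-35325099, H2-Q4 at 35379617-35385290, H2-Q10 at 35470089-35474563 and H2-T23 at 36029773-36032855. B2m lies apart from them on chromosome 2 at 122147686-122153083. H2-Q1 is the gene with the identifier ENSMUSG00000079507.

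Library totals ran from 7694015 to 14565542 counts, with a median of 10803734. Soy-20% + SAA livers 3 to 6 stood apart from the other libraries: their counts rose with the GC content of the transcript end by 0.0578 to 0.2061 on the log2 scale per 10% GC, over 10708 genes, against -0.0259 in Soy-20% + SAA livers 1 and 2 and -0.0641 to 0.0318 in the other diets. Calls printed here that rest on this diet, other than those of cell markers, are therefore also given without these 4 libraries. The summed count of 10 hepatocyte markers lay between 800660 and 1046100 normalized counts in every liver, and all 10 were present.

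H2-Q1 was high in livers of mice on ample SAA, lower on unsupplemented soy, and lowest on both restricted diets. Normalized counts (the count divided by the size factor of its library) averaged 214 ± 98.7 in Soy-20% + SAA and 202 ± 39.9 in Cas-20% (mean ± SD, n = 6). They averaged 97.5 ± 38.1 in Soy-20%, 32.8 ± 5.78 in Cas-5% and 24.6 ± 9.43 in Soy-10%. Soy-20% and Soy-20% + SAA hold the same amount of soy and differ in methionine and cysteine, and the mean of the former lay between those of the full-SAA and the restricted diets.

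The single livers show the same order. H2-Q1 ran from 154 through a median of 197 to 250.2 in Cas-20% livers and from 107 through a median of 187 to 376 in Soy-20% + SAA livers, and these diets overlapped. Values ran from 50.4 through a median of 90.9 to 149.5 in Soy-20%, below every Cas-20% liver, while 4 of the 6 lay below every Soy-20% + SAA liver. In the restricted diets they ran from 25.2 through a median of 32.1 to 41.4 (Cas-5%) and from 13.6 through a median of 24.5 to 36.1 (Soy-10%), which overlapped each other and lay below every liver of the 3 other diets. Raw counts behind these values were 13 to 487 per liver, and the coefficient of variation within a diet was 17.6% to 46.0%.

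**Figure D1:**
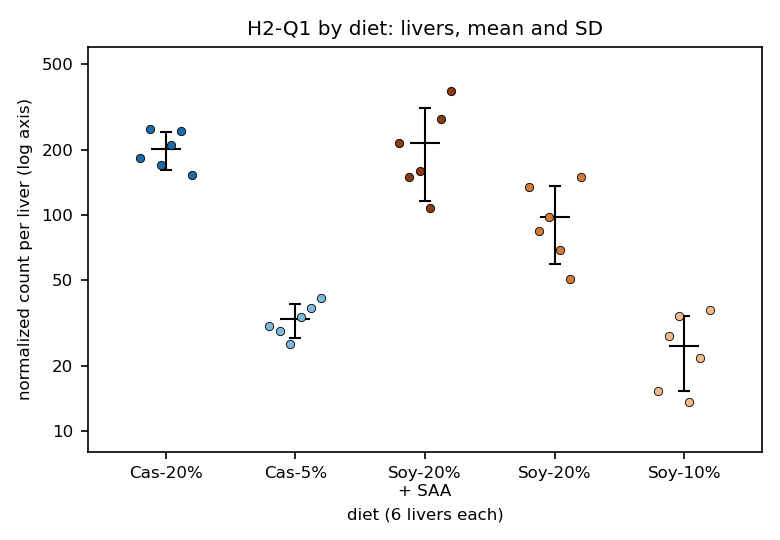
Normalized count of H2-Q1 in each of the 30 livers, by diet, on a log axis, with the mean and SD of each diet. All 12 livers of the restricted diets lie at or below 41.4, and the lowest liver of any other diet is at 50.4.

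As fold changes, H2-Q1 in Cas-5% differed from Cas-20% by -2.60 on the log2 scale (SE 0.15), a level 6.04 times lower. Soy-10% differed from Soy-20% + SAA by -3.11 (SE 0.32), 8.64 times lower, and from Soy-20% by -1.96 (SE 0.28), 3.89 times lower. Soy-20% itself differed from Soy-20% + SAA by -1.14 (SE 0.30), 2.20 times lower. The difference between both full-SAA diets was small beside its error, -0.09 (SE 0.25), and Cas-5% was 0.43 (SE 0.22) above Soy-10%. Without Soy-20% + SAA livers 3 to 6 the difference of Soy-10% was -2.88 and that of Soy-20% was -0.91, both against Soy-20% + SAA livers 1 and 2. For Soy-10%, with the GC slope of each library as a covariate, it was -2.77.

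Class I genes are similar in sequence, so reads can be shared between them. The windows compared were 50 bases long, the read length in the labels, while the study's methods give longer reads, for which sharing was not computed. In the last 300 nucleotides of the H2-Q1 transcript, 54 of 251 windows of 50 bases (21.5%) were identical to a stretch of another class I gene, and 134 (53.4%) matched one with at most 2 mismatches, in every case in H2-Q2. H2-Q2 itself was near zero, with 0 to 18 raw counts per liver. Among the class I genes counted here, no window came within 2 mismatches of any besides H2-Q2. The closest stretches of the abundant H2-K1, H2-D1 and H2-Q10 each differed at 21 bases. The same measure gave 8 of 251 windows within 2 mismatches (3.19%) for H2-Q10, 0 for H2-Q4, 42 (16.7%) for H2-K1, 36 (14.3%) for H2-D1, the latter pair chiefly with each other, and 33 (13.1%) for H2-T23. Reads from the shared windows of H2-Q1 and H2-Q2 cannot be told apart.

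The promoters of 3 members that fell together on Cas-5% and of one that did not are shown so that their class I elements can be read side by side. Of the 9 members, 8 had an entry in the RefSeq promoter table (GRCm38.p6) and H2-Q1 had none. The stretch from -180 to -6 relative to the annotated start is printed 5′ to 3′ for H2-K1, H2-Q10 and B2m, which fell on Cas-5%, and for H2-Q4, which did not pass the test there. Capitals mark matches, on either strand, to an IRF element (AANNGAAA), an NF-kB element (GGGATTCCC), the X2 box core (TGACG) and the Y box core (ATTGG), and none of the matches overlap. In these exact letters B2m and H2-Q4 held matches to the same elements, as did H2-K1 and H2-D1. Variant spellings of the elements, including other forms of the NF-kB site, were not searched. Whether the elements bear on the response to diet was not tested.
H2-K1 (chr17:34000353-34000527, minus strand): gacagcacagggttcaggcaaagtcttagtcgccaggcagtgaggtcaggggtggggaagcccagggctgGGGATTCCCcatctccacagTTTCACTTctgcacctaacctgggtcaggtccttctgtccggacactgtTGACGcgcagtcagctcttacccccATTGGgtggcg
H2-Q10 (chr17:35469909-35470083, plus strand): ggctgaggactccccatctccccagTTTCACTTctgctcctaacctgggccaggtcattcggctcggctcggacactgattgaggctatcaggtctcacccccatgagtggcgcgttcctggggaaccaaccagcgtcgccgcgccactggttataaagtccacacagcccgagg
B2m (chr2:122147507-122147681, plus strand): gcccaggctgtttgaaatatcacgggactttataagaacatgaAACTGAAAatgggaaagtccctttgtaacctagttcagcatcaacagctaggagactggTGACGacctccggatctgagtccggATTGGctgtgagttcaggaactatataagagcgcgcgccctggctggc
H2-Q4 (chr17:35379437-35379611, plus strand): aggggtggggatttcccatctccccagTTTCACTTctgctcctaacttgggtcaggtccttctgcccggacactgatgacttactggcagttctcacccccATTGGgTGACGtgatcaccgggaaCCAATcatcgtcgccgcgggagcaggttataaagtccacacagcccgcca

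H2-K1 held a match to all 4 elements, and so did H2-D1. H2-Q4 and B2m held the IRF, X2 and Y matches, whereas H2-Q10 held the IRF match only within 250 bases before its start. H2-T23 held IRF and Y matches, Tap1 held X2 and Y matches, and Tapbp held the Y match alone. Among 32851 mouse promoters of the same length, 21.3% held the IRF element, 0.301% the NF-kB element, 17.8% the X2 core and 33.8% the Y core. These matches are descriptions of the letters and show no binding.

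The most abundant class I transcripts of liver were lower after casein restriction. Relative to Cas-20%, the secreted chain H2-Q10, the classical chain H2-K1, the light chain B2m and tapasin (Tapbp) fell in Cas-5% livers, by 0.28 to 0.60 on the log2 scale. The other classical chain H2-D1 and the non-classical H2-Q4 and H2-T23 did not pass the test. In edgeR's quasi-likelihood test with Benjamini-Hochberg adjustment over all genes, 4 of the 8 members beside H2-Q1 fell and 0 rose. Over all 12076 genes tested, 24.9% were called and 13.3% were called lower. The median log2 difference of the 8 was -0.31, against 0.0161 over all genes.

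H2-Q10 was among the highest class I transcripts and had the smallest adjusted p of the 8. Its normalized counts ran from 14102 through a median of 15059 to 15466 in Cas-20% and from 8428 through a median of 9666 to 11088 in Cas-5%, so that each of the 6 Cas-5% livers lay below every Cas-20% liver. The log2 difference was -0.60 (SE 0.08, adjusted p = 2.2e-05), or 1.52 times lower. H2-K1 was as abundant and its groups did not overlap either. It ran from 13058 through a median of 14730.2 to 17648 in Cas-20% and from 10399.6 through a median of 11383 to 12348 in Cas-5%, a log2 difference of -0.38 (SE 0.08, adjusted p = 0.00297).

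Of the partners of the heavy chains, B2m and Tapbp fell and Tap1 did not pass. B2m, the most abundant member, ran from 31071 through a median of 34459 to 44882 in Cas-20% and from 26396 through a median of 29330.2 to 31855 in Cas-5%, with 5 of 6 Cas-5% livers below every Cas-20% liver. Its log2 difference was -0.28 (SE 0.09, adjusted p = 0.0303). Tapbp ran from 1177 through a median of 1353 to 1889 and from 1013 through a median of 1079 to 1219 in the same order of diets, again with 5 of 6 livers below, and differed by -0.33 (SE 0.10, adjusted p = 0.0226). Tap1, the peptide transporter subunit, had a log2 difference of -0.37 (SE 0.15, adjusted p = 0.0783), which did not pass, and only 1 of its Cas-5% livers lay below every Cas-20% liver.

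The remaining heavy chains overlapped broadly between these diets. H2-D1 ran from 3743 through a median of 4431 to 6112 in Cas-20% and from 4157 through a median of 4486 to 4709 in Cas-5%, with a log2 difference of -0.03 (SE 0.10, adjusted p = 0.847). H2-Q4 averaged 82.3 ± 10.8 and 83.0 ± 15.2 in the same order, a difference of 0.03 (SE 0.13, adjusted p = 0.892). H2-T23 was the most variable member, at 114 ± 67.5 and 104 ± 77.7, with a difference of -0.11 (SE 0.40, adjusted p = 0.866).

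Leaving out any 1 of the 12 libraries kept the calls of H2-Q10 (highest adjusted p = 0.000100) and H2-K1 (0.00884). The call of B2m was lost without Cas-20% liver 4 (adjusted p = 0.0582) or Cas-5% liver 1 (0.0535), 2 (0.0675) or 4 (0.0638), and that of Tapbp without Cas-5% liver 4 (0.0514). Tap1 passed without Cas-20% liver 1 or 6. With the GC slope as a covariate B2m and Tapbp stood at adjusted p = 0.175 and 0.176. Cas-20% liver 2 had the highest value of its diet for 6 of the 9 members. It also had the highest summed class II genes (6616 normalized counts, against a median of 3035 in Cas-20%) and lymphocyte markers (397 against 222). Without it the same 4 members were called, with log2 differences of -0.61 (H2-Q10), -0.33 (H2-K1), -0.23 (Tapbp) and -0.22 (B2m).

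**Figure D2:**
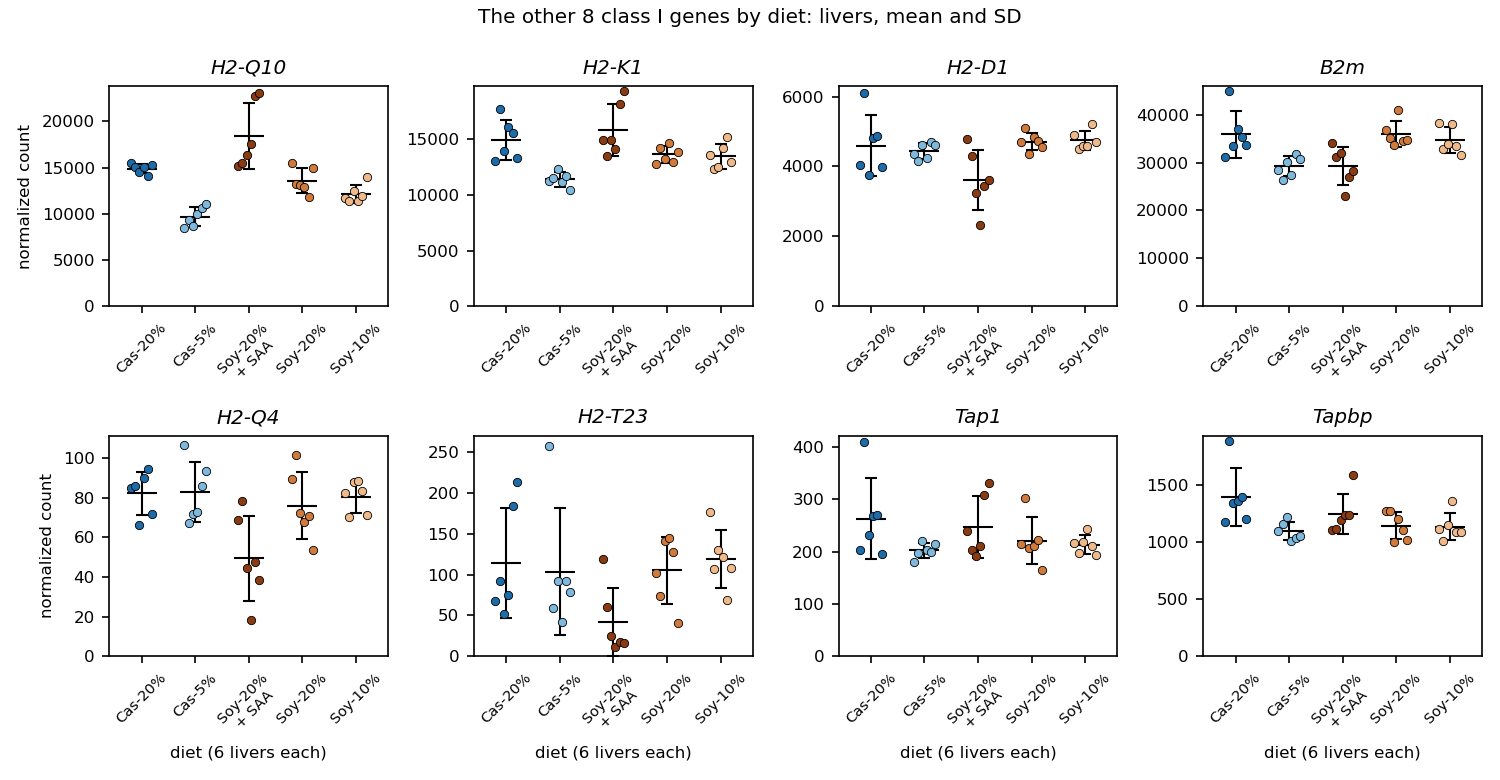
Normalized counts of the 8 members other than H2-Q1 in each liver, 1 panel per gene and 6 livers per diet, with the mean and SD of each diet. H2-Q10 and H2-K1 in Cas-5% lie below every Cas-20% liver, whereas H2-D1, H2-Q4 and H2-T23 overlap between those diets.

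In the soy comparison H2-Q10 fell and H2-T23 rose in the restricted livers, and neither call held without Soy-20% + SAA livers 3 to 6. Soy-10% was compared with Soy-20% + SAA, a cut of SAA like that of the casein comparison made with soy. Soy itself was also cut, from 20% to 11.5%, so SAA and total protein cannot be told apart here. Of the 8 members 1 fell and 1 rose, where 17.0% of the 11983 genes tested were called, and the median of the 8 was 0.0528 against -0.00969 over all genes.

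H2-Q10 ran from 15223 through a median of 16969.7 to 23099 in Soy-20% + SAA and from 11413 through a median of 11808 to 13973 in Soy-10%, with no overlap. The log2 difference was -0.60 (SE 0.11, adjusted p = 0.00382). Its call was lost, in the same direction and at a smaller size, without Soy-20% + SAA livers 3 to 6 (-0.35, adjusted p = 0.0530) and with the GC covariate (-0.33, adjusted p = 0.0976). In those 4 livers H2-Q10 stood at 16330 to 23099, above the 15223 and 15504 of Soy-20% + SAA livers 1 and 2.

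H2-T23, which encodes Qa-1, ran from 10.54 through a median of 21.4 to 118 in Soy-20% + SAA and from 68.4 through a median of 115 to 177 in Soy-10%. The diets overlapped, with 3 of 6 Soy-10% livers above every control liver. The log2 difference was 1.54 (SE 0.45, adjusted p = 0.0308). It rested on Soy-20% + SAA livers 3 to 6, which held 10.54 to 25.2 against 59.6 and 118 in livers 1 and 2. Without them the difference was 0.39 (adjusted p = 0.560), with the GC covariate it was 0.64 (adjusted p = 0.348), and leaving out any 1 of Soy-20% + SAA livers 3 to 6 or Soy-10% livers 1 to 4 ended the call (adjusted p 0.0501 to 0.0694).

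The remaining members did not pass, and for H2-Q4, H2-D1, B2m and H2-K1 the difference was smaller without the same 4 libraries. H2-Q4 differed by 0.71 (SE 0.24, adjusted p = 0.0509) and H2-D1 by 0.39 (SE 0.13, adjusted p = 0.0545), both higher in Soy-10%. B2m differed by 0.24 (SE 0.09, adjusted p = 0.0851), H2-K1 by -0.24 (SE 0.10, adjusted p = 0.0956), Tap1 by -0.22 (SE 0.13, adjusted p = 0.267) and Tapbp by -0.14 (SE 0.10, adjusted p = 0.331). Without Soy-20% + SAA livers 3 to 6, H2-Q4 was at 0.12, H2-D1 at 0.05, B2m at 0.08 and H2-K1 at -0.08.

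**Figure D3:**
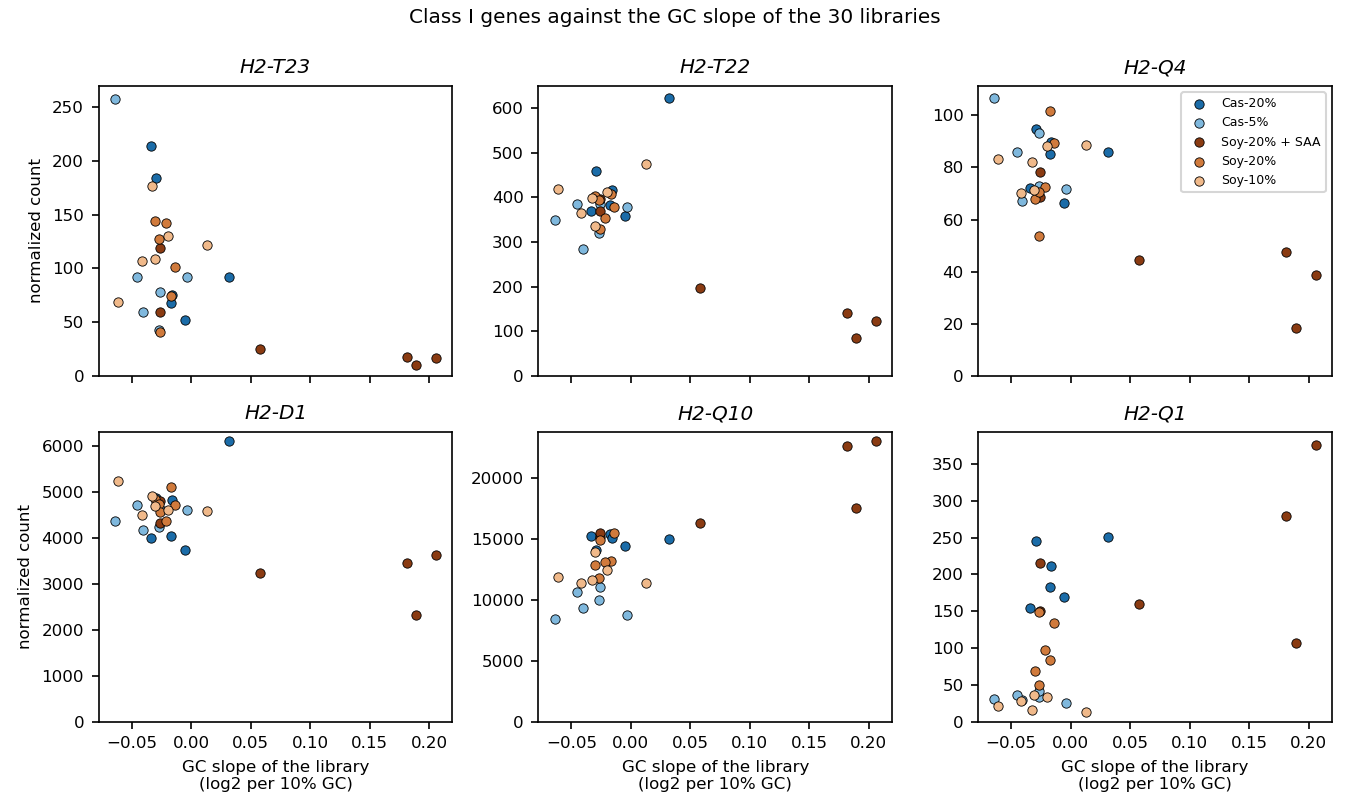
Normalized count of 6 heavy chains in each liver (vertical axis) against the slope of that library's counts on transcript GC content, in log2 units per 10% GC (horizontal axis). The 4 Soy-20% + SAA livers with slopes of 0.0578 to 0.2061 hold the lowest H2-T23 and H2-T22 and the highest H2-Q10 of the 30 livers, while their H2-Q1 spans 107 to 376.

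In those 4 livers H2-Q4 was at 18.2 to 47.5 against 68.8 and 78.4 in livers 1 and 2, and H2-D1 at 2330 to 3622 against 4310 and 4793. H2-Q1 did not separate in this way, at 107 to 376 against 150.2 and 215. Whether the slope itself lowered or raised any member was not tested.

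The unsupplemented soy control gave a comparison free of those libraries. In Soy-10% against Soy-20%, 0.866% of 11897 genes were called, 0 of the 8 members passed, 1 had an unadjusted p under 0.05 and DESeq2 called 0. That one was H2-Q10, which ran from 11843 through a median of 13173 to 15478 in Soy-20%, with 3 of 6 Soy-10% livers below every Soy-20% liver, and a log2 difference of -0.16 (SE 0.07, adjusted p = 0.378). H2-K1 differed by -0.02 (SE 0.06) and B2m by -0.06 (SE 0.07). H2-Q1, which was picked for its fall on the restricted diets, was 3.89 times lower here.

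The control diets were compared next, for the effect of adding SAA to soy and of the protein source at equal SAA. Between Soy-20% and Soy-20% + SAA 0 of the 8 members passed, where 0.00838% of 11932 genes, a single gene, were called. The unadjusted p was under 0.05 for 6 of the 8, and DESeq2 called 2, B2m higher and H2-Q10 lower in Soy-20%. B2m ran from 33684 through a median of 34954 to 40934 in Soy-20% and from 23077 through a median of 29629.6 to 34126 in Soy-20% + SAA, with 5 of 6 Soy-20% livers above. The log2 difference was 0.31 (SE 0.10, adjusted p = 0.0905), and that of H2-Q10 was -0.43 (SE 0.12, adjusted p = 0.0698).

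Between Cas-20% and Soy-20% + SAA 0 of the 8 passed as well, against 2.43% of 11988 genes. For 5 the unadjusted p was under 0.05, and DESeq2 called 1, H2-Q4, which was higher in Cas-20%. Without Soy-20% + SAA livers 3 to 6 the count was 0 in both comparisons, where 0 of 12396 and 3 of 12498 genes were called. Leaving out Soy-20% + SAA liver 1 alone gave 4 calls against Soy-20% and 3 against Cas-20%, where 13.3% and 15.1% of all genes were called. Leaving out liver 2 alone gave 1 in each, beside 1118 of 12062 and 1247 of 12072 genes. Both comparisons share the Soy-20% + SAA livers with the soy restriction contrast, so their values are not independent of it.

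**Figure D4:**
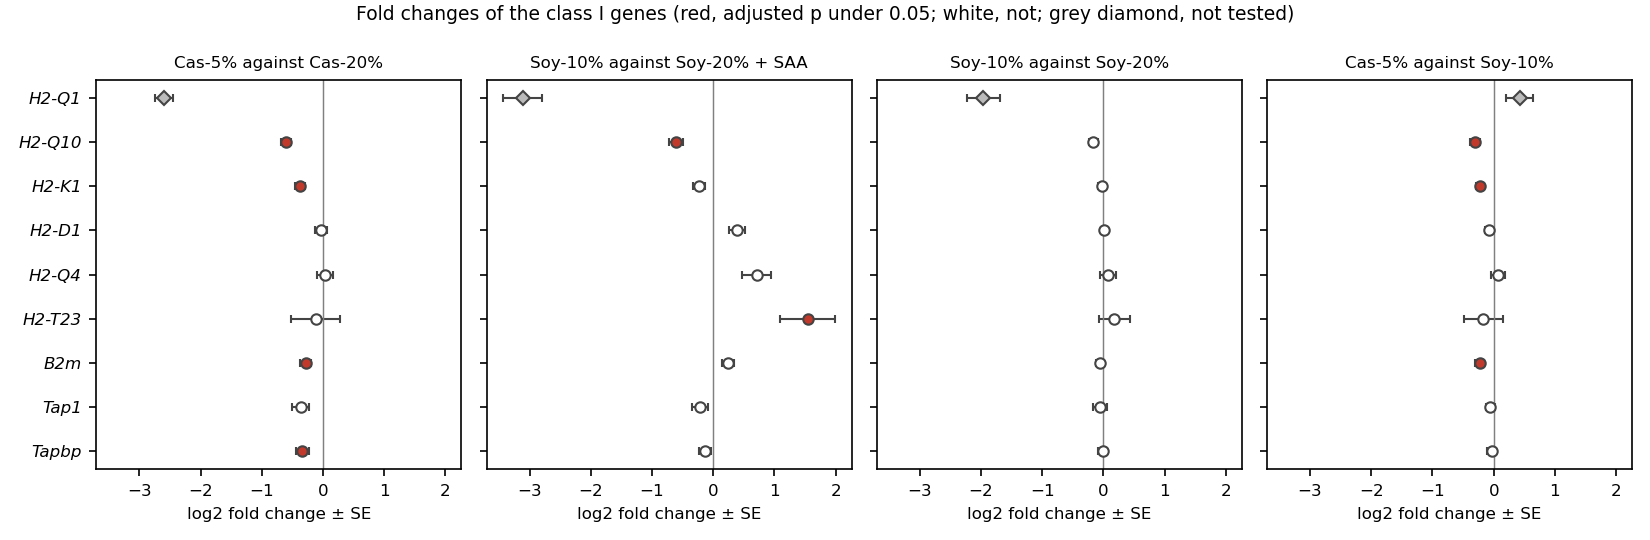
Log2 differences with standard errors for the 9 members in 4 comparisons; red points passed at an adjusted p of 0.05 or less, white points did not, and the grey diamond is H2-Q1, which was not tested. H2-Q10 lies at -0.60 for both casein restriction and soy restriction against the SAA-matched control, and at -0.16 against Soy-20%.

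On the 2 restricted diets the casein-restricted livers held less of the same abundant transcripts than the soy-restricted ones. The SAA contents of these diets were close, but Cas-5% held 5% casein and Soy-10% held 11.5% soy. Against Soy-10%, Cas-5% was lower for H2-Q10, H2-K1 and B2m, 3 of 8 members, and higher for 0. Over 12041 genes, 10.7% were called and 6.14% were called lower, and the median of the 8 was -0.12 against 0.0143 over all genes. Every Cas-5% liver lay below every Soy-10% liver for H2-Q10, a log2 difference of -0.30 (SE 0.08, adjusted p = 0.0156). For H2-K1 (5 of 6 livers below) the difference was -0.22 (SE 0.07, adjusted p = 0.0366), and for B2m (also 5 of 6) it was -0.23 (SE 0.07, adjusted p = 0.0425). H2-Q10 passed without any 1 library (highest adjusted p = 0.0379). H2-K1 did not pass without Cas-5% liver 1, 2, 4 or 6 or Soy-10% liver 1, 4 or 5 (0.0567 to 0.0897), nor B2m without Cas-5% liver 1, 2, 3 or 4 or Soy-10% liver 1, 2, 3, 4 or 5 (0.0532 to 0.0959). H2-D1, Tap1, Tapbp, H2-Q4 and H2-T23 did not pass, at -0.08, -0.06, -0.03, 0.07 and -0.17. In the same comparison 6 of 8 stellate cell markers were called higher in Cas-5%, with summed normalized counts of 3881 to 5256 in Cas-5% and 3517 to 4090 in Soy-10%, and 1 of 2 cholangiocyte markers (Spp1) was called higher. Their part in the class I differences was not tested.

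Whether casein and soy restriction differed in their effect was tested as an interaction in 24 livers, the casein effect minus the soy effect, with Soy-20% + SAA as the soy control. B2m was called, at -0.53 (SE 0.13, adjusted p = 0.0142), where it fell by 0.28 with casein and stood 0.24 higher, not called, with soy. It was the only one of the 8, where 8.69% of 12532 genes were called. It passed without any 1 library (-0.58 to -0.46, highest adjusted p = 0.0286). Without Soy-20% + SAA liver 1, H2-Q4, H2-T23 and H2-D1 were called too, without liver 2 H2-Q4 was, and without Cas-5% liver 1 H2-T23 was. In the same order, 15.4%, 12.9% and 9.45% of all genes were called in those fits. The B2m call was lost without Soy-20% + SAA livers 3 to 6 together (-0.37, adjusted p = 0.185), with the GC covariate (-0.45, adjusted p = 0.0576) and when Soy-20% replaced Soy-20% + SAA (-0.23, adjusted p = 0.245). In that last form, where 5.99% of all genes were called, H2-K1 and H2-Q10 were called instead, both lower with casein. Against the SAA-matched control H2-Q10 differed by -0.01 (SE 0.13, adjusted p = 0.980), and the H2-Q1 value was 0.51 (SE 0.38).

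The heavy chains were then summed to see how much of the total class I message each member carried. QuantSeq reads come from near the 3′ end of each transcript, so counts of different genes were set side by side without scaling for length. Over the 15 heavy-chain rows of the table the sum averaged 3564 CPM (counts scaled to the library total) in Soy-20% + SAA, 3219 in Cas-20%, 3086 in Soy-20%, 3008 in Soy-10% and 2736 in Cas-5%. In normalized counts the same sums were 39342 ± 5868, 36372 ± 2872, 33557 ± 1494, 31826 ± 1484 and 27027 ± 1074, with 36684 and 34912 in Soy-20% + SAA livers 1 and 2. The log2 ratio of Cas-5% to Cas-20% was -0.23 in CPM and -0.43 in normalized counts, since CPM moved the median gene of this comparison by 0.19 on the log2 scale. On the latter scale the Cas-5% sums, 25624 to 28651, lay below the lowest Cas-20% liver at 33961.

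H2-Q10 and H2-K1 made up most of that sum. H2-Q10 held 46.8% in Soy-20% + SAA, 41.0% in Cas-20%, 40.5% in Soy-20%, 38.2% in Soy-10% and 35.9% in Cas-5%. H2-K1 kept a share of 40.2% to 42.2% in all diets. H2-Q1 was a minor chain throughout, at 0.557% in Cas-20% and 0.545% in Soy-20% + SAA, 0.291% in Soy-20%, 0.121% in Cas-5% and 0.0776% in Soy-10%.

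**Figure D5:**
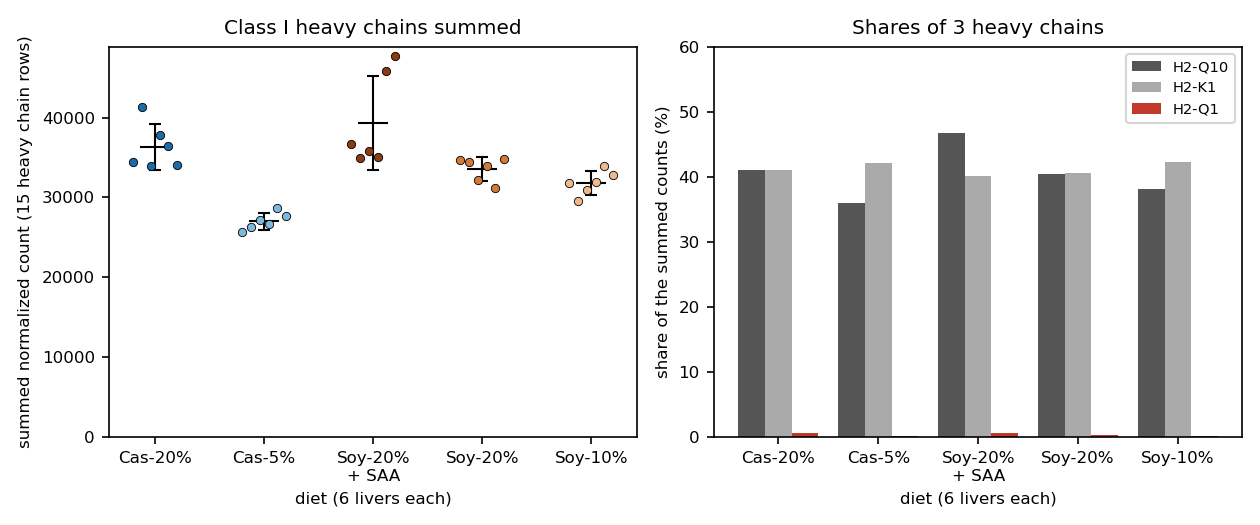
Left, summed normalized count of the 15 class I heavy-chain genes in each liver by diet, with the mean and SD. Right, share of that sum held by H2-Q10, H2-K1 and H2-Q1 in percent; H2-Q10 runs from 35.9% in Cas-5% to 46.8% in Soy-20% + SAA, and H2-Q1 stays under 1%.

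Of the other class I heavy chains, 9 were in the table and 5 were tested in the restriction comparisons. On casein 0 of the 5 passed, where 24.9% of all genes were called, and the median was -0.20. Of the 5, 2 had an unadjusted p under 0.05 (H2-Q7 and H2-T22), and DESeq2 called 0. H2-Q7, a Qa-2 chain, averaged 1013 ± 258 in Cas-20% and 809 ± 84.3 in Cas-5%, a difference of -0.31 (SE 0.14, adjusted p = 0.117). H2-T22, a ligand of some γδ T cell receptors, differed by -0.29 (SE 0.13, adjusted p = 0.100). Its close copy H2-T10 matched it with at most 2 mismatches in 94.0% of its end windows, and exactly in 49.8%, so counts of this pair are uncertain.

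On soy H2-T10 was higher in Soy-10% than in Soy-20% + SAA, at 0.94 (SE 0.31, adjusted p = 0.0491), from 3 to 14 raw counts per liver in those diets and not called by DESeq2 (adjusted p = 0.0588), and H2-T22 stood at 0.88 (SE 0.30, adjusted p = 0.0576). In the interaction H2-T22 was called at -1.18 (SE 0.34, adjusted p = 0.0346), and the call was lost without Soy-20% + SAA livers 3 to 6 (-0.35, adjusted p = 0.412) and with the GC covariate (-0.77, adjusted p = 0.0923). Without those livers the H2-T10 difference was 0.36 (adjusted p = 0.730). H2-T22 held 84.3 to 196 normalized counts in Soy-20% + SAA livers 3 to 6, against 369.9 and 396 in livers 1 and 2, the same split as for H2-T23. H2-Q6 and H2-M3 did not pass in any comparison. H2-M2 and H2-T24 were tested only in the interaction and did not pass, at 2.15 (SE 0.70, adjusted p = 0.0553) and -0.25 (SE 0.61, adjusted p = 0.839).

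Of 18 genes that supply or load peptides, beside the members, the casein comparison called 1 higher and 1 lower, where 24.9% of all genes were called. The median of the 18 was 0.0457, against 0.0161 over all genes. The one that fell was Psmb9, a catalytic subunit of the immunoproteasome, which ran from 299 through a median of 402 to 620.0 in Cas-20% and from 162 through a median of 221 to 289 in Cas-5%, a log2 difference of -0.89 (SE 0.17, adjusted p = 0.000873). Tapbpl, a tapasin-related peptide editor, was slightly higher, at 0.23 (SE 0.07, adjusted p = 0.0151). Tap2, the partner of Tap1, stood at -0.37 (SE 0.13, adjusted p = 0.0550) and did not pass. On soy, where 17.0% of all genes were called, 1 of 18 was, the proteasome activator subunit Psme2. It was higher in Soy-10% at 0.59 (SE 0.10, adjusted p = 0.00270), and without Soy-20% + SAA livers 3 to 6 at 0.35 (adjusted p = 0.0829).

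Among class I-like molecules Mr1, which presents vitamin B metabolites to MAIT cells, was lower on both restricted diets than on the SAA-rich diet of the same protein. It averaged 64.1 ± 24.6 in Cas-20% and 35.5 ± 7.55 in Cas-5%, with a log2 difference of -0.83 (SE 0.24, adjusted p = 0.0156). It averaged 63.6 ± 13.7 in Soy-20% + SAA and 33.5 ± 8.63 in Soy-10%, with a log2 difference of -0.92 (SE 0.19, adjusted p = 0.00623). It was the only one of 6 called on casein, where 24.9% of all genes were. On soy 3 of 7 were called, where 17.0% of all genes were, with Raet1d, an NKG2D ligand, and Cd1d1, a lipid-presenting molecule, higher in Soy-10% at 1.52 and 0.40. Without Soy-20% + SAA livers 3 to 6 Mr1 passed at -1.07 (adjusted p = 0.0342), whereas Raet1d (1.29, adjusted p = 0.229) and Cd1d1 (0.20, adjusted p = 0.489) did not. In Soy-10% against Soy-20%, 0 of 8 class I-like molecules passed, Mr1 included, where 0.866% of all genes were called.

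Regulators and interferon-induced genes were called in both directions on casein, each list less often than the 24.9% of all genes tested. Of 26 regulators of class I transcription and interferon signalling 1 rose and 1 fell on casein. On soy, where 17.0% of all genes were called, 3 rose and 2 fell. Both counts were 0 with the GC covariate and without Soy-20% + SAA livers 3 to 6. Irf2, which binds the IRF element, fell in Cas-5% at -0.45 (SE 0.08, adjusted p = 0.000475) and in Soy-10% at -0.36 (SE 0.10, adjusted p = 0.0273), the latter lost without Soy-20% + SAA livers 3 to 6 (-0.24, adjusted p = 0.326). The class I transactivator Nlrc5 did not pass, at 0.15 on casein (adjusted p = 0.560) and -0.26 on soy (adjusted p = 0.183).

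Of 33 interferon-induced genes, 3 rose and 3 fell on casein, where 24.9% of all genes were called. The median of the 33 was -0.0358, against 0.0161 over all genes. Oasl1, a member of the oligoadenylate synthetase family, fell at -1.42 (SE 0.17, adjusted p = 1.03e-05) and the RNA sensor Ifih1 at -0.55 (SE 0.10, adjusted p = 0.000463), while Ifi27 rose at 0.53 (SE 0.11, adjusted p = 0.00233). On soy 4 rose and 0 fell, where 17.0% of all genes were called. Among the 4 were Usp18, a negative regulator of interferon signalling, at 0.62 (SE 0.15, adjusted p = 0.0145), and Ifi27 at 0.45 (SE 0.11, adjusted p = 0.0146). The number that rose was 0 with the GC covariate and 1 without Soy-20% + SAA livers 3 to 6.

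Markers of the other liver cells were read beside these values. On casein, where 24.9% of all genes were called, 1 of 6 lymphocyte markers (Cd4) fell and 0 of 13 macrophage and dendritic markers passed (1 had an unadjusted p under 0.05). In the same comparison 3 of 9 sinusoidal endothelial and 2 of 8 stellate cell markers rose, and of 10 hepatocyte markers 2 rose and 1 fell. Summed lymphocyte markers ran from 189 to 397 normalized counts in Cas-20% and from 231 to 302 in Cas-5%, and summed macrophage markers from 4199 to 6682 and from 4689 to 6483. Both pairs of ranges overlapped. Summed sinusoidal endothelial markers did not overlap, at 3358 to 3730 in Cas-20% and 3811 to 4035 in Cas-5%. Summed stellate cell markers ran from 3368 to 4202 and from 3881 to 5256 in the same order, with overlap. The sums of cholangiocyte and hepatocyte markers overlapped between these diets as well. Class II genes, which mark antigen-presenting cells, had 0 of 8 called on casein, 1 with an unadjusted p under 0.05. On soy, where 17.0% of all genes were called, 2 of 13 macrophage and dendritic markers (Marco and C1qc) and 2 of 9 sinusoidal endothelial markers rose. Lower in Soy-10% were 1 of 8 class II genes (H2-DMa), 1 of 2 cholangiocyte markers (Sox9) and 1 of 10 hepatocyte markers (Apoa1). These soy counts are not given without Soy-20% + SAA livers 3 to 6. The part of these cells in the class I differences was not tested.

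The genes whose pattern over the 30 livers was most like that of H2-Q1 were Ntrk2, Sulf2, Spc24, Fads1 and Dntt. Likeness was the Pearson r of log2 CPM, ranked over 12560 genes, given as a description, since all points share the 5 diets and their libraries. The values were 0.911 for Ntrk2, a neurotrophin receptor, 0.910 for Sulf2, a heparan sulfate 6-O-endosulfatase, and 0.900 for Spc24, a kinetochore subunit. Fads1, the delta-5 desaturase of polyunsaturated fatty acid synthesis, and Dntt, terminal deoxynucleotidyl transferase, both stood at 0.896.

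Of the members, H2-Q10 followed H2-Q1 most closely, at 0.816 (place 83 of 12560). H2-K1 followed at 0.644, Tapbp at 0.489 and Tap1 at 0.446, whereas B2m was at 0.0246 and H2-D1, H2-Q4 and H2-T23 were at -0.26, -0.31 and -0.38. After the mean of each diet was removed, r was 0.690 for H2-Q10, 0.304 for H2-K1, 0.258 for Tap1 and 0.127 for Tapbp. H2-D1 and H2-Q4 then turned to 0.290 and 0.157, while H2-T23 was at -0.16 and B2m at 0.0315. All these r include Soy-20% + SAA livers 3 to 6. Those livers held less H2-D1, H2-Q4 and H2-T23 and more H2-Q10 than livers 1 and 2 of that diet. Values of r without them were not computed. Sulf2 averaged 142 ± 27.6 normalized counts in Cas-20% and 121 ± 46.0 in Soy-20% + SAA, against 27.0 ± 9.07 in Soy-10% and 12.7 ± 4.18 in Cas-5%. Fads1 covered a narrower range, from 5712 ± 1479 in Soy-20% + SAA to 2926 ± 208 in Cas-5%.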

How the data were processed

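Liver RNA of 30 mice, 6 per diet, had been made into 3′ QuantSeq libraries, whose read length the labels give as 50 bases and the study's methods as longer. The deposited counts were made by the authors from reads assigned to genes, without normalization; aligner and annotation release are not given in the sources used here. The deposited normalized signal was made by the authors with DESeq2 1.30 in R 4.0.3 as counts divided by size factors, and is called normalized counts here. Of 1718 missing symbols, 1684 were filled from GENCODE M21. The table holds 14173 genes with at least 90 counts over the 30 livers.

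Raw counts were tested with the quasi-likelihood F test of edgeR 4.0.16 (R 4.3.3, filterByExpr, TMM, two-sided, Benjamini-Hochberg over all genes, called at 0.05) on the 12 livers of a comparison, or 24 for the interaction. DESeq2 1.42.0 was an alternative. Scripts were tested on simulated data, where DESeq2 could make a larger share of false calls than its threshold of 0.05 allows. Other alternatives were relative log expression factors, no filter, all 30 livers, a replicate block, a GC covariate, and libraries left out. Each mouse gave a single library, so p-values measure the spread between mice and between libraries together. In fits with all Soy-20% + SAA livers, this spread includes the split in GC slope within that diet.

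Members and gene lists were chosen with earlier results of these data known. Genes named beside the members were the 5 most like H2-Q1, up to 3 per list by smallest adjusted p in either restriction comparison, and any tested class I heavy chain. Tap2 and Nlrc5 were named for their role after their values were seen. Replicate numbers did not pair the livers, since no pair of diets had all 6 same-number correlations over 0.1. Python 3.11.15 with pandas 2.3.3 and matplotlib 3.10.9 made tables and figures.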

Additional observations from a re-analysis of the deposited data

Results flagged for a closer look

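Single livers stood far from the others of their diet in 4 of 45 groups of 6 livers (9 members in 5 diets), by Dixon's gap over range; chance alone gives about 1 in 20. H2-T23 was at 257 normalized counts in Cas-5% liver 1, Tap1 at 409 and Tapbp at 1889 in Cas-20% liver 2, and Tapbp at 1591 in Soy-20% + SAA liver 6. Cas-20% liver 2 also had the highest summed class II genes, lymphocyte and macrophage markers of its diet. The part of those cells in its Tap1 and Tapbp values was not tested.

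Casein and soy restriction differed in their effect on B2m by -0.53 on the log2 scale and on H2-T22 by -1.18, in the interaction test of edgeR over 24 livers (adjusted p = 0.0142 and 0.0346). Neither difference passed without Soy-20% + SAA livers 3 to 6.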

How the results depend on the processing

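With the GC slope as a covariate the counts of members called were 2 on casein and 0 in the soy comparison and in the interaction. Without Soy-20% + SAA livers 3 to 6 the soy comparison and the interaction also gave 0. DESeq2 called 4 on soy, 2 between Soy-20% and Soy-20% + SAA, and 1 between Cas-20% and Soy-20% + SAA. A fit of all 30 livers called 6 on soy, 5 between each control and Soy-20% + SAA, and 1 between Cas-5% and Soy-10%. The interaction gave 2 with Soy-20% as the soy control. Summed heavy chains divided by DESeq2 size factors differed by -0.43 between the casein diets and by -0.24 between the restricted diets, against -0.23 and -0.14 in CPM. CPM moved the median gene by 0.19 between the casein diets and by 0.099 between the restricted diets on the log2 scale. The cause of the shifts in calls was not tested.

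Over all genes, the 2035 called on soy became 367 with the GC covariate, 317 without those livers and 3077 in a fit of all 30 livers, and the 1089 of the interaction 579 and 296 in the former 2. DESeq2 called 216 genes against 103 for Soy-10% against Soy-20%, 873 against 1 for Soy-20% and 1130 against 291 for Cas-20%, both against Soy-20% + SAA, where all 30 livers gave 1793 and 2331.

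With 1 library left out at a time, calls ran from 2 to 5 on casein, 1 to 5 on soy, 0 to 0 for Soy-10% against Soy-20%, 0 to 4 for Soy-20% and 0 to 3 for Cas-20% against Soy-20% + SAA, 1 to 3 between the restricted diets and 1 to 4 in the interaction. H2-Q1 ran from -2.68 to -2.53 on casein, -3.25 to -2.87 on soy, -2.10 to -1.80 for Soy-10% against Soy-20% and -1.30 to -0.90 for Soy-20% against Soy-20% + SAA.

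The replicate block gave 3 calls on casein, where B2m was lost (adjusted p = 0.0709), 2 between the restricted diets, where B2m was also lost (0.0613), 3 on soy, where H2-D1 was added (0.0390), and 2 in the interaction, where H2-T23 was added. Between the restricted diets the GC covariate also left 2, without B2m (0.0507). Correlations of same-numbered livers ran from -0.112 to 0.096 between Cas-20% and Cas-5%. They were highest between Cas-5% and Soy-20% + SAA, with a median of 0.165 and 4 of 6 over 0.1. No pair of diets had all 6 over 0.1, so the numbers were not taken to pair mice.

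Over all alternatives, 115 counts and levels stayed within the spread or within 1.5 times, and 40 moved. Single genes were followed only where the main fit gave a call or, for members, an unadjusted p under 0.05. Of their values 624 stayed the same, 70 lost the call, 44 gained it and 0 changed direction. The same meant an equal direction and side of the threshold. For H2-Q1, which was not tested, it meant a shift smaller than the spread within diets.

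H2-Q1, with 13 to 487 raw counts per liver, was measured less precisely than H2-Q10 or B2m. H2-T10 and H2-M3 had few counts and H2-T23 a wide spread, which limits the size of difference that the test detects.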
